A study of Mus musculus with 6 samples.

Results

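Antigens on the cell surface define the gates with which haematopoietic stem cells and multipotent progenitors are sorted, and the transcripts of these antigens were followed here in stem cells from mice labelled Irgm1-/- and wild-type mice. The 10 genes were Kit, Ly6a, Slamf1, Cd48, Cd34, Flt3, Procr, Eng, Tek and Esam. A probe set was taken as a member when the platform's probe-to-gene table gave it exactly 1 symbol and that symbol was 1 of these genes. This gave 13 of 45101 probe sets, for 9 genes. No probe set had Ly6a as its only symbol, so Ly6a, which encodes the sorting antigen Sca-1, was not analysed here.

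The series holds 6 Affymetrix oligonucleotide arrays. Of these, 3 were labelled Lrg47_HSC, from mice labelled Lrg-47-/- (Irgm1-/-, a deletion of an interferon-induced GTPase), and 3 were labelled WT_HSC, from wild-type mice. All mice were C57BL/6, aged 8 to 12 weeks, and housed free of specific pathogens. In both groups the marrow cells were sorted as the side population that exports a Hoechst dye, in combination with Sca-1, c-kit and lineage stains. Linear T7 amplification of the RNA, which favours the 3′ ends of transcripts, came before labelling. Which part of Irgm1 is deleted is not in the labels, nor is whether the arrays of a group came from separate mice, so the p-values measure only the spread between these samples. Because c-kit is the product of Kit and was part of the gate in both groups, the Kit values are those of cells already selected for its product.

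Kit, Flt3 and Tek (the angiopoietin receptor) are receptor tyrosine kinases, and the ligand of Kit sustains stem cells in the marrow. Slamf1 (CD150) and Cd48 are immunoglobulin-like receptors of the SLAM family: the classical SLAM code takes long-term stem cells as positive for CD150 and negative for CD48. Cd34 and Flt3 are gained in the mouse as long-term stem cells become short-term stem cells and multipotent or lymphoid-primed progenitors. Procr (the endothelial protein C receptor), Eng (endoglin, a co-receptor for TGF-beta and BMP ligands), Tek and Esam (an adhesion molecule of endothelial junctions) are shared by stem cells and endothelium.

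The gene pair with the highest differences, Cd48 and Slamf1, lies side by side on chromosome 1, with 1 other gene annotated as protein-coding between them in the RefSeq order. Their promoter windows and that of Flt3, the gene with the lowest difference, are shown because the values below turn on these 3 genes. Each runs 5′ to 3′ on the gene's strand from 250 bases before to 50 bases after the RefSeq start (assembly GRCm38.p6). The windows are chr1:171681742-171682041 on the plus strand for Cd48, chr1:171766882-171767181 on the plus strand for Slamf1 and chr5:147400440-147400739 on the minus strand for Flt3. Capitals mark a RUNX motif (TGTGGT).
Cd48: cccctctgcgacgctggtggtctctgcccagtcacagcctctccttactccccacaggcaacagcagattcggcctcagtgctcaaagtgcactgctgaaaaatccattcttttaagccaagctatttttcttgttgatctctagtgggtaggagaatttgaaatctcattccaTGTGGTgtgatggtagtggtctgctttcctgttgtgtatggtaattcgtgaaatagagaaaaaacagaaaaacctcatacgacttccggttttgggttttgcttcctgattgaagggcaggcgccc
Slamf1: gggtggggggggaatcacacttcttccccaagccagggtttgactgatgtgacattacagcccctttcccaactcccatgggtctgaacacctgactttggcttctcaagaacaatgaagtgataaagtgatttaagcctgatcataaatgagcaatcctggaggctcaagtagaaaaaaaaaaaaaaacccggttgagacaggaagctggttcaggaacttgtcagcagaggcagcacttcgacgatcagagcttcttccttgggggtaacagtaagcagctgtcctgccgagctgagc
Flt3: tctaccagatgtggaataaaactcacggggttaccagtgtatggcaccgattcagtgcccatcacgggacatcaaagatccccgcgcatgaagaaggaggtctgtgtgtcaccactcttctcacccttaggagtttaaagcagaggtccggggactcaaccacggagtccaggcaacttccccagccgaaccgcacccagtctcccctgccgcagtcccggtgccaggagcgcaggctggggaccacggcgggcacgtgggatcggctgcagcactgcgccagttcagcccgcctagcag

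The windows were searched on both strands for the letters of an interferon response element (GAAA, any 2 bases, GAAA), a gamma-activated site (TTCNNNGAA), a GATA motif (AGATAA) and the RUNX motif. Among 32851 RefSeq promoter windows of 300 bases, 3.44% held the first, 8.3% the second, 11.2% the third and 16.8% the RUNX motif. Of the 10 genes, 8 had a window in the RefSeq table. The Cd48 window held 1 RUNX motif, 76 bases before the start, and the Tek window held 1 GATA motif after the start. The letters of the interferon response element and of the gamma-activated site were in none of the windows of the 8 genes.

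Values are log2 expression per probe set as deposited. The array medians lay between 3.67 and 3.73, and the control probe sets for bacterial transcripts, which have no target in mouse RNA, reached at most 3.18, so a probe set at or below that level was taken as at background. Irgm1 itself gave 7.68, 8.58 and 7.84 on the Lrg47_HSC arrays and 8.39, 8.57 and 8.36 on the WT_HSC arrays (log2 difference −0.41, SE 0.25, limma adjusted p = 0.475), and the groups are therefore named by their labels. In markers of other cells, Lrg47_HSC replicate 3 stood apart from replicates 1 and 2: the CD3 subunit gene Cd3d read 4.56, 3.45 and 6.91 on Lrg47_HSC replicates 1 to 3, and the endothelial scavenger receptor gene Stab2 read 5.85, 4.44 and 8.31. It stood apart in other ways too. Over the tested probe sets it correlated with Lrg47_HSC replicate 1 (0.9756) about as with WT_HSC replicates 1 and 2 (0.9752 and 0.9754). Lrg47_HSC replicates 1 and 2 correlated at 0.987. Its 3′ minus 5′ distance of the actin control probe sets was the largest (3.56, against 2.86 and 2.81 on Lrg47_HSC replicates 1 and 2). On the WT_HSC arrays this was 3.16, 3.16 and 2.57.

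Markers of the labelled cell type and of other lineages were set beside the bacterial controls. All 9 genes with a probe set read above these controls on all 6 arrays by at least 1 probe set. Of these genes, Cd48, Cd34 and Flt3 also mark progenitors rather than long-term stem cells alone. Procr, Eng, Tek and Esam are shared with endothelium. These readings therefore do not show that the cells were long-term stem cells. Of the markers of other lineages on the array, 5 of 7 erythroid, 4 of 15 neutrophil and monocyte, 4 of 11 B cell and 5 of 7 mast cell and basophil genes lay at or below the control ceiling on all 6 arrays, and so did 6 of 23 T and NK cell genes (Cd4, Cd8b1, Zap70, Trat1, Ncr1 and Prf1). Most neutrophil and monocyte, B cell, and T and NK cell genes thus read above the ceiling on at least 1 array. Some were bright: Ccl5 had means of 13.03 on the Lrg47_HSC and 8.10 on the WT_HSC arrays. Ms4a4b had 10.83 and 7.13, and Nkg7 had 10.14 and 7.52.

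The comparison asks which surface antigen transcripts differ in stem cells from mice labelled as lacking Irgm1. Probe sets entered the test if at least 3 of the 6 arrays gave a value above that array's median, without regard to group, which kept 12 of the 13 member probe sets and all 9 genes. The probe set of a gene with the highest mean stands for the gene. Limma called 0 of the 9 genes higher and 0 lower at adjusted p under 0.05, where 2.03% of the 10374 tested genes were called (1.08% higher and 0.954% lower). Of the 9 genes, 6 had an unadjusted p under 0.05, against 18.5% of all tested genes. The 3 arrays of each group did not overlap for 6 of the 9 genes, against 25.2% of all tested genes (12.8% higher and 12.4% lower). Slamf1 and Cd48 were the 2 that lay higher, and Kit, Cd34, Flt3 and Procr were the 4 that lay lower on the Lrg47_HSC arrays. The members were chosen with earlier results of these data known, so these counts are no independent test of the 9 genes as a set. The median difference was −0.09 over the 9 genes and 0.0032 over all tested genes. In bulk samples such as these, fewer cells of a type and less RNA per cell cannot be told apart.

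**Figure D1:**
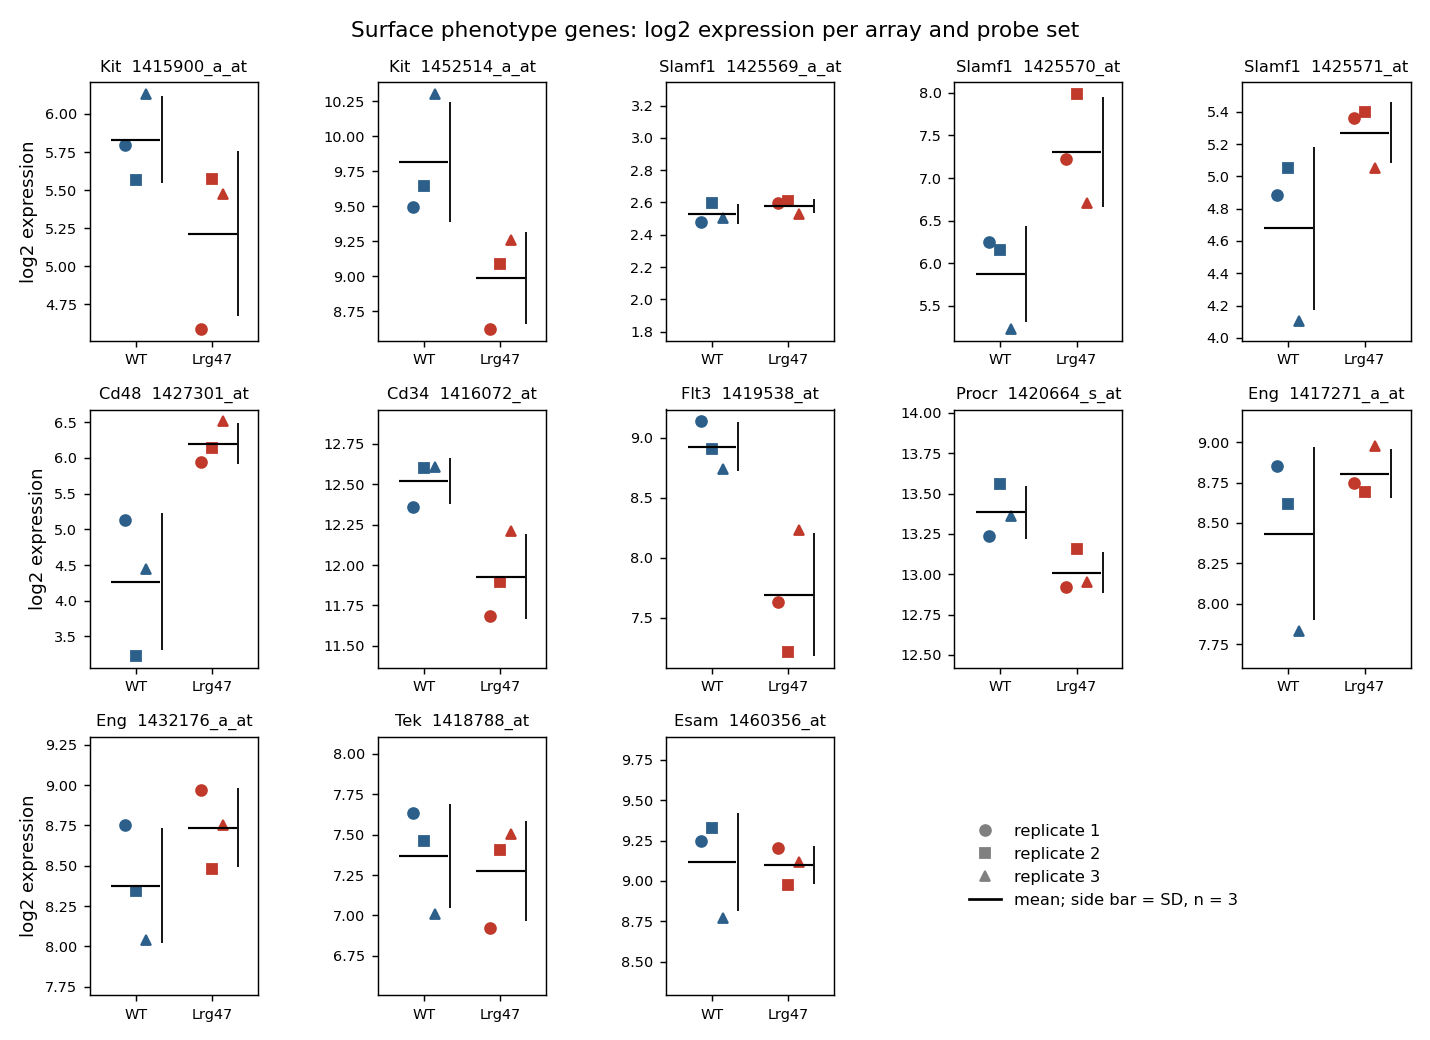
Log2 expression (vertical axis) of each of the 13 member probe sets on the 3 WT_HSC arrays (blue) and the 3 Lrg47_HSC arrays (red); symbols mark replicates, the horizontal line is the group mean and the side bar its SD (n = 3). The groups separate without overlap for Cd48, Cd34, Flt3, Procr, 1 of 2 Kit and 2 of 3 Slamf1 probe sets.

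The receptor tyrosine kinases come first. Flt3, the receptor for FLT3 ligand on multipotent and lymphoid-primed progenitors, read 7.63, 7.21 and 8.23 on the Lrg47_HSC arrays and 9.14, 8.90 and 8.74 on the WT_HSC arrays. Every Lrg47_HSC array lay below every WT_HSC array, and Lrg47_HSC replicate 3 lay closest to wild type. The group means were 7.69 ± 0.51 and 8.93 ± 0.20 (SD, n = 3 each). The log2 difference was −1.23 (SE 0.27, 95% interval −1.87 to −0.60, limma adjusted p = 0.0915). In linear terms this is 2.35-fold lower, the lowest difference of the 9 genes and rank 562 by p among the 22580 tested probe sets. Without Lrg47_HSC replicate 3 the difference was −1.50 and passed (limma adjusted p = 0.0417), and without Lrg47_HSC replicate 2 it was −0.99 (limma adjusted p = 0.209).

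Kit, the receptor for stem cell factor, has 2 probe sets. The brighter read 8.63, 9.09 and 9.26 on the Lrg47_HSC arrays against 9.50, 9.64 and 10.30 on the WT_HSC arrays. The groups did not overlap, with WT_HSC replicate 3 the highest. The log2 difference was −0.82 (SE 0.26, 95% interval −1.43 to −0.21, limma adjusted p = 0.195). The dimmer read 4.59, 5.58 and 5.47 against 5.80, 5.56 and 6.13, so that Lrg47_HSC replicate 2 lay just above WT_HSC replicate 2. Its difference had the same sign (−0.62, SE 0.29, limma adjusted p = 0.347). Tek read 6.92, 7.40 and 7.50 against 7.64, 7.46 and 7.01. These groups overlapped throughout, with a log2 difference of −0.09 whose 95% interval ran from −0.66 to 0.48 (limma adjusted p = 0.89), and the sign of Tek turned without Lrg47_HSC replicate 1 (0.085) or WT_HSC replicate 1 (0.042).

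The SLAM receptors lay the other way. Cd48, a GPI-anchored protein that binds CD2 and CD244 and that the SLAM code takes as absent from long-term stem cells, read 5.94, 6.14 and 6.51 on the Lrg47_HSC arrays and 5.13, 3.23 and 4.45 on the WT_HSC arrays. The Lrg47_HSC arrays lay close together and all above wild type, while the wild-type arrays were spread and replicate 2 lay near the control ceiling. The means were 6.20 ± 0.29 and 4.27 ± 0.96 (SD, n = 3 each). The log2 difference was 1.93 (SE 0.44, 95% interval 0.90 to 2.97, limma adjusted p = 0.101). This 3.82-fold difference was the highest of the 9 genes and had rank 637 by p among all tested probe sets. It was 1.78 without Lrg47_HSC replicate 3 and 1.41 without WT_HSC replicate 2, and it did not pass with any 1 array left out.

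Slamf1 has 3 probe sets. The brightest read 7.22, 7.98 and 6.71 on the Lrg47_HSC arrays and 6.25, 6.15 and 5.23 on the WT_HSC arrays, without overlap. Its log2 difference was 1.43 (SE 0.39, 95% interval 0.51 to 2.34, limma adjusted p = 0.145), a 2.69-fold difference. The second read 5.36, 5.40 and 5.05 against 4.88, 5.05 and 4.10, again without overlap but only narrowly so, with a log2 difference of 0.59 (SE 0.26, limma adjusted p = 0.312). The third lay between 2.48 and 2.61 on all 6 arrays, below the control ceiling, and was not tested. WT_HSC replicate 3 was the lowest array for both tested probe sets, and without it the difference of the brightest was 1.11. Cd48 and Slamf1 thus had differences of the same sign, although the SLAM code reads their proteins in opposite ways.

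Cd34, a sialomucin that is low on long-term mouse stem cells, read 11.68, 11.89 and 12.21 on the Lrg47_HSC arrays and 12.36, 12.60 and 12.61 on the WT_HSC arrays. The groups did not overlap, and Lrg47_HSC replicate 3 again lay closest to wild type. The log2 difference was −0.59 (SE 0.16, 95% interval −0.96 to −0.23, limma adjusted p = 0.135), or 1.51-fold lower. It was −0.73 without Lrg47_HSC replicate 3 (limma adjusted p = 0.0676).

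Among the antigens shared with endothelium, Procr, which binds protein C, read 12.92, 13.16 and 12.95 on the Lrg47_HSC arrays and 13.23, 13.56 and 13.36 on the WT_HSC arrays. All Lrg47_HSC arrays were lower, by a small step: the log2 difference was −0.37 (SE 0.12, 95% interval −0.66 to −0.09, limma adjusted p = 0.199). The suffix of its probe set marks one that can match several transcripts.

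Eng and Esam overlapped between the groups. The brighter Eng probe set read 8.75, 8.69 and 8.98 against 8.85, 8.62 and 7.83, with WT_HSC replicate 3 the lowest array. Its log2 difference of 0.37 (95% interval −0.26 to 1.01, limma adjusted p = 0.545) was 0.07 without that array. The other Eng probe set gave 0.36 (SE 0.23, limma adjusted p = 0.488). Esam read 9.20, 8.97 and 9.12 against 9.25, 9.33 and 8.77, a log2 difference of −0.02 with a 95% interval from −0.46 to 0.43 (limma adjusted p = 0.975). Its sign turned without Lrg47_HSC replicate 2 (0.044), WT_HSC replicate 1 (0.048) or WT_HSC replicate 2 (0.090).

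**Figure D2:**
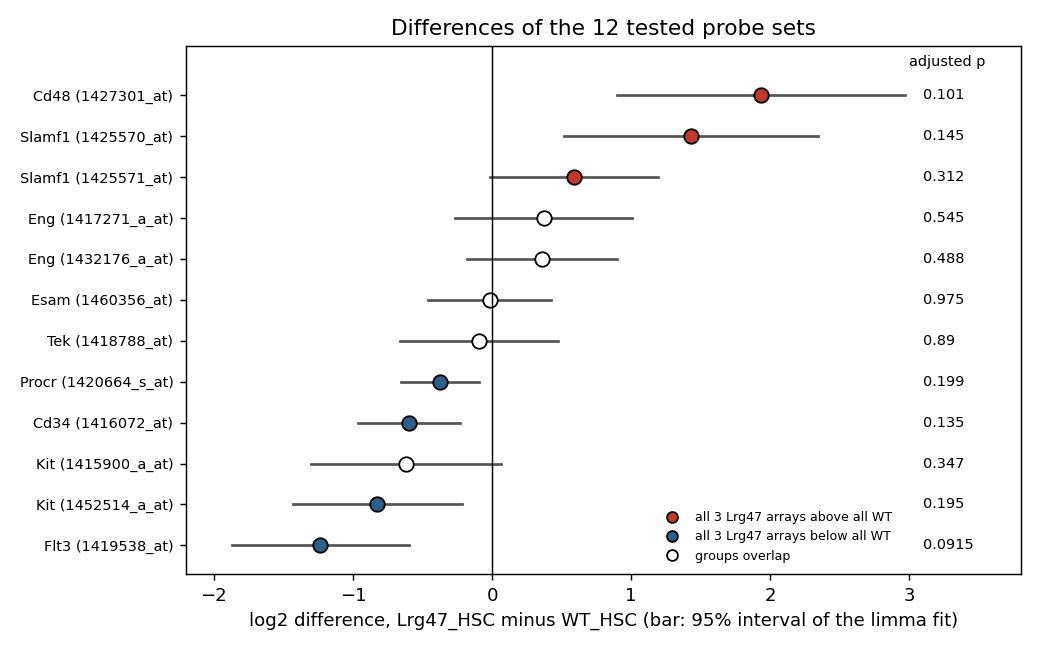
Log2 difference (horizontal axis, Lrg47_HSC minus WT_HSC) of the 12 tested member probe sets with its 95% interval from the limma fit and its adjusted p over all tested probe sets; red and blue points mark probe sets whose groups do not overlap. Cd48 is at 1.93 and Flt3 at −1.23, and no adjusted p is below 0.0915.

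The differences of Flt3, Kit, Cd34, Procr, Eng, Slamf1 and Cd48 kept their sign in every alternative run for each of them, which included each array left out. Over these alternatives Flt3 ranged from −1.50 to −0.99, Kit from −0.98 to −0.58, Cd34 from −0.73 to −0.47 and Procr from −0.45 to −0.29. Slamf1 ranged from 0.59 to 1.73 and Cd48 from 1.41 to 2.36.

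**Figure D3:**
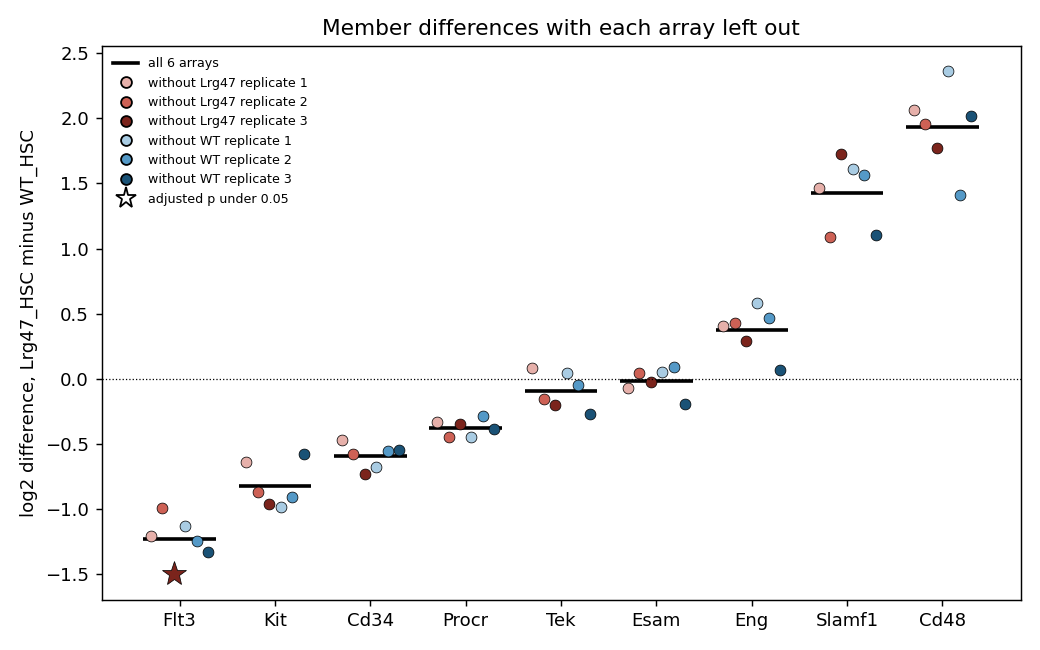
Log2 difference (vertical axis, Lrg47_HSC minus WT_HSC) of the 9 member genes in the fit with all 6 arrays (black bar) and with each array left out (points); a star marks an adjusted p under 0.05. The star is Flt3 without Lrg47_HSC replicate 3, at −1.50.

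Further genes used to mark stem and progenitor cells included 3 called genes, all higher on the Lrg47_HSC arrays and all encoding surface antigens. Of 40 listed, 35 were on the array and 31 were tested, of which 3 rose, 0 fell and 28 did not pass (median difference −0.05). The list also holds 4 genes whose products are not surface antigens (Hoxb5, Fgd5, Ctnnal1 and Vwf), and without these 27 were tested, 3 rose and 0 fell (median difference −0.06). Selp (P-selectin, an adhesion receptor of platelets and endothelium) rose 3.74-fold, from 7.42 ± 0.16 to 9.33 ± 0.38 (SD, n = 3 each, limma adjusted p = 0.0135). Thy1, an antigen of T cells that is also present at low levels on mouse stem cells of some strains, rose by 3.63 on the log2 scale (SE 0.48, limma adjusted p = 0.0209). Thy1 is counted again below as 1 of the 5 called T and NK cell markers. It read 7.97, 8.31 and 9.72 on Lrg47_HSC replicates 1 to 3, highest on replicate 3. Cd69, an early activation antigen of lymphocytes that interferons induce, rose by 1.02 (SE 0.17, limma adjusted p = 0.0393). The tetraspanin gene Cd81 differed by −0.65 (SE 0.12, limma adjusted p = 0.0529) with groups that did not overlap. Selp lost the call without Lrg47_HSC replicate 1 or WT_HSC replicate 1 or 2, Thy1 without Lrg47_HSC replicate 2 or any 1 WT_HSC array, and Cd69 without any 1 array, with limma adjusted p of up to 0.0811, 0.0973 and 0.142.

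The other tested SLAM receptor genes had smaller differences. Of the 8 genes on the array besides Slamf1 and Cd48, a set that also holds the CD48 ligand Cd2 and the adaptor Sh2d1a, 4 were tested and 0 passed in limma, with 1 at an unadjusted p under 0.05. Ly9, Slamf7 and Cd84 had differences of 0.26, 0.09 and 0.10 (limma adjusted p = 0.551, 0.699 and 0.87). Cd2, a T and NK cell antigen, differed by 1.99 (SE 0.80, limma adjusted p = 0.283) and read 4.81, 4.13 and 7.63 on the Lrg47_HSC arrays against 3.81, 3.65 and 3.13 on the WT_HSC arrays, highest on Lrg47_HSC replicate 3. Without that array the difference of Cd2 was 0.94 (SE 0.27, limma adjusted p = 0.139). Slamf8, Slamf9 and Sh2d1a were at background on all 6 arrays.

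Of the Ly6 superfamily, GPI-anchored relatives of the Ly6a product, 16 genes were on the array, 11 of them at background on all arrays, and 3 were tested. Ly6e, an interferon-stimulated member, rose from 12.19 ± 0.46 to 13.41 ± 0.10 (SD, n = 3 each, log2 difference 1.22, limma adjusted p = 0.0476). It kept the call only without WT_HSC replicate 3 among the fits with 1 array left out, with limma adjusted p of up to 0.166. Ly6e is counted again below as 1 of the 13 interferon-stimulated genes called higher. The urokinase receptor gene Plaur (−0.26, limma adjusted p = 0.544) and the complement inhibitor gene Cd59a (−0.12, limma adjusted p = 0.745) did not pass.

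Ligands and partners of the surface receptors gave 0 calls among 11 tested genes in limma, 5 of them at an unadjusted p under 0.05 (median difference −0.09). Tgfbr2, the type II TGF-beta receptor with which endoglin acts, differed by −0.58 (SE 0.16, limma adjusted p = 0.149) and the protein C cofactor gene Pros1 by −0.67 (SE 0.20, limma adjusted p = 0.181). Kitl, the ligand of Kit, was at background on all 6 arrays. Of 30 tested genes of KIT, FLT3 and TEK signalling, 0 rose and 1 fell (median difference 0.01). It was Gab1, a docking protein of receptor tyrosine kinases, at 7.82 ± 0.13 against 8.73 ± 0.05 (SD, n = 3 each, log2 difference −0.92, limma adjusted p = 0.0437), and it lost the call without any 1 array (limma adjusted p of up to 0.159). The feedback inhibitor gene Spry1 differed by −0.91 (SE 0.21, limma adjusted p = 0.101) and the PI3-kinase subunit gene Pik3cg by −0.87 (SE 0.22, limma adjusted p = 0.119), both without overlap.

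Transcription factors known to act on genes of this kind had a median difference of −0.13 over 19 tested, of which 0 rose and 1 fell. Hhex, a homeobox factor of early progenitors, fell by 0.86 on the log2 scale (SE 0.15, limma adjusted p = 0.0476) and kept the call only without Lrg47_HSC replicate 3, with limma adjusted p of up to 0.167 when another array was left out. Gata2, a factor that acts on Kit, differed by −0.83 (SE 0.17, limma adjusted p = 0.0664), Hoxa9, which acts on Flt3, by −0.48 (SE 0.10, limma adjusted p = 0.0774) and Lmo2 by −0.40 (SE 0.10, limma adjusted p = 0.109). The groups did not overlap for any of these 3 genes, whose part in the values of Kit and Flt3 was not tested.

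**Figure D4:**
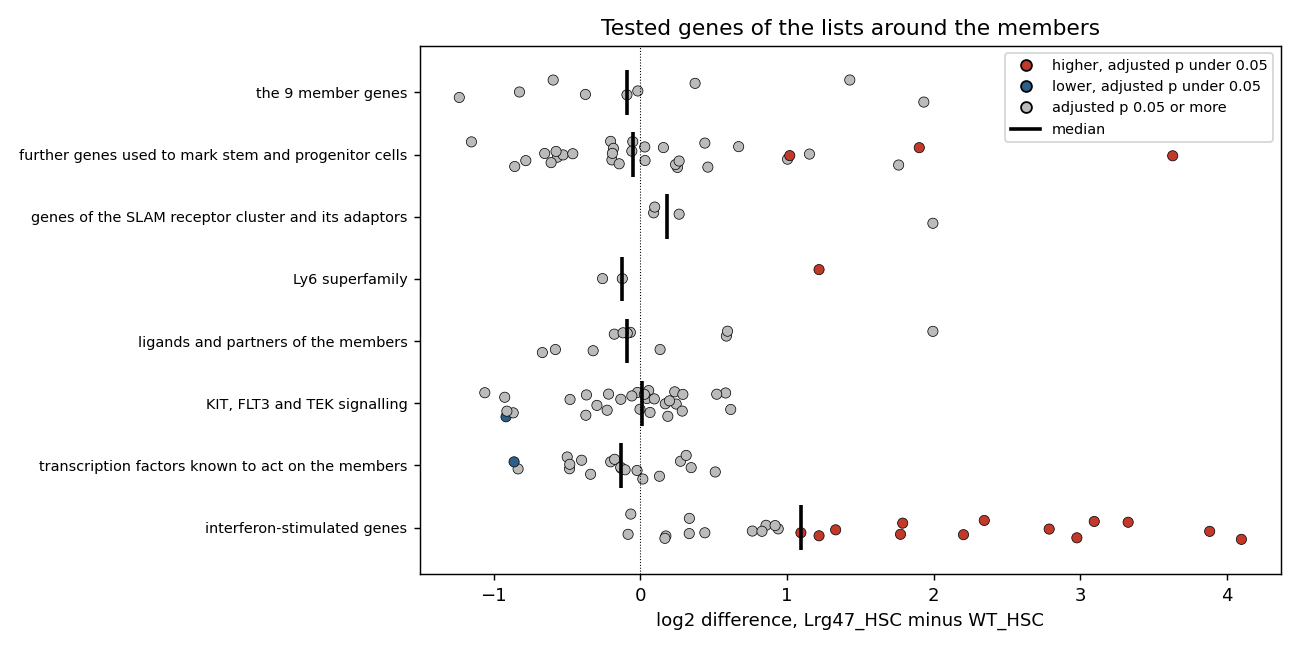
Log2 difference (horizontal axis, Lrg47_HSC minus WT_HSC) of each tested gene of the 9 surface genes and of 7 lists; red and blue points have an adjusted p under 0.05 and the bar is the median. The member genes spread from −1.23 to 1.93 with 0 called, while 13 of 25 interferon-stimulated genes were called higher.

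Interferon-stimulated genes and markers of other cells also differed between the groups. Of 25 tested interferon-stimulated genes, 13 rose and 0 fell, and among them Rsad2, which encodes the antiviral protein viperin, rose by 3.33 on the log2 scale (limma adjusted p = 0.000214). The other 12 did not pass, among them Irf1 and Irf9 with differences of −0.07 and −0.08. With 1 array left out 6 to 11 of the 25 were called higher, with 6 when WT_HSC replicate 1 or 2 was the one left out, 8 without Lrg47_HSC replicate 1 or 2 and 9 without Lrg47_HSC replicate 3. The lineage stain, Sca-1, c-kit and side population gate of the sort is meant to remove mature T and NK cells. Of 23 of their markers on the array 12 were tested, 5 rose and 0 fell. Among the 5, Gzmb was above the array median on 3 Lrg47_HSC arrays but on only 1 WT_HSC array. On the WT_HSC arrays it read 3.87, 3.00 and 3.64, at or near the control ceiling, so its difference is largely one against background. With 1 array left out 1 to 5 of the 12 were called higher: Ccl5 alone without WT_HSC replicate 1 or 2, 2 genes without Lrg47_HSC replicate 1, 3 without WT_HSC replicate 3 and 5 without Lrg47_HSC replicate 3. The summed linear level of the 23 ranged from 9670 to 20818 on the Lrg47_HSC arrays and from 727 to 1185 on the WT_HSC arrays. Such sums follow the brightest genes, which on the Lrg47_HSC arrays were Ccl5, Ms4a4b and Nkg7. Without Lrg47_HSC replicate 3 the log2 differences of Cd3e, Cd8a, Cd28, Cd247 and Lat were 0.16, 0.06, 0.24, −0.24 and −0.55. Those of Cd2, Nkg7, Thy1, Gzmb, Ms4a4b, Klrd1 and Ccl5 ranged from 0.94 (Cd2) to 4.68 (Ccl5). Ccl5, a chemokine of T and NK cells, read 12.81, 12.77 and 13.52 against 8.69, 7.33 and 8.29. Cd48 and Slamf1 are also expressed by T cells and other leukocytes. WT_HSC replicate 2, the lowest array for Cd48, was the lowest for 6 of the 12 tested T and NK cell genes, while WT_HSC replicate 3 was the lowest for 3 and the other 3 were lowest on other arrays. Lrg47_HSC replicate 3, where the T cell genes were highest, had the highest Cd48 of the 6 arrays (6.51) but the lowest Slamf1 of its group (6.71). The part of these cells in the Cd48 and Slamf1 differences was not tested.

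Of 13 endothelial markers on the array other than Eng, Tek, Esam and Procr, 8 were tested and 0 passed in limma, with 3 at an unadjusted p under 0.05. Their summed linear level was 1878 to 2150 on the Lrg47_HSC arrays and 524 to 1036 on the WT_HSC arrays. Most of this was Vwf: without it the sums were 351, 314 and 987 on Lrg47_HSC replicates 1 to 3 and 426, 409 and 321 on the WT_HSC arrays, so that Lrg47_HSC replicate 3 alone lay above wild type. Pecam1 and Sox17 were at background on all 6 arrays. Vwf, which platelets and some stem cells also express, had the smallest p of the list (log2 difference 1.76, SE 0.42, limma adjusted p = 0.112). Emcn lay the other way without overlap, at 5.45, 5.34 and 5.32 against 6.08, 6.68 and 5.92. Its log2 difference was −0.86 (limma adjusted p = 0.132), and Lrg47_HSC replicate 3 was its lowest array. Robo4 also had a negative difference (−0.53, limma adjusted p = 0.491), with groups that overlapped. On Lrg47_HSC replicate 3 alone the junction gene Cdh5 (4.80) was above the control ceiling, against at most 2.59 elsewhere. On that array Tek (7.50) and Esam (9.12) lay within the range of the WT_HSC arrays, and the brighter Eng probe set (8.98) was the highest of the 6, while the other lay below Lrg47_HSC replicate 1. The difference of the brighter Eng probe set was 0.29 without that array.

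**Figure D5:**
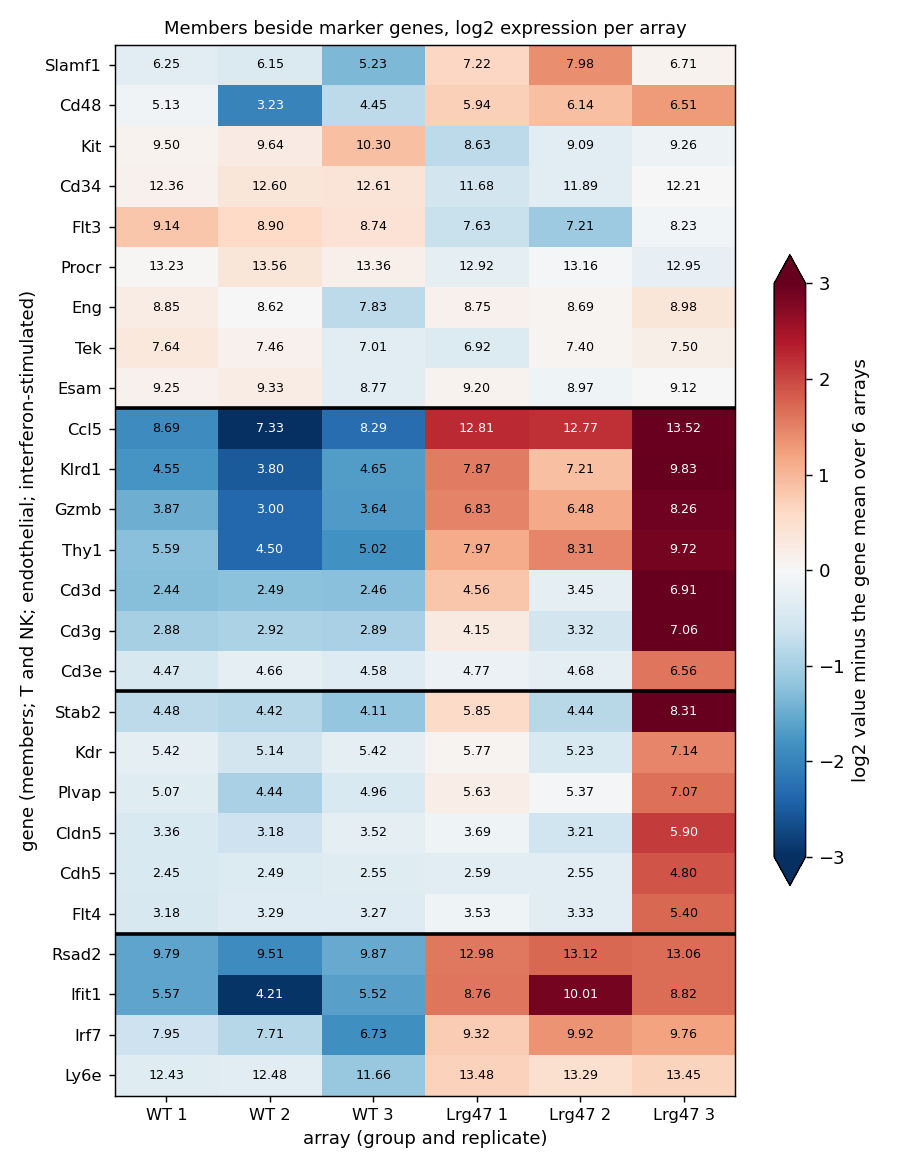
Log2 expression of the 9 surface genes, of T and NK cell, endothelial and interferon-stimulated genes (rows) on each array (columns); numbers are values and colours the difference from the gene's mean over 6 arrays. The drawn endothelial genes, which are among the 7 of 13 on the array that are highest on Lrg47_HSC replicate 3, and the CD3 genes are highest there, and the interferon-stimulated genes are high on all 3 Lrg47_HSC arrays.

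The profiles over the 6 arrays nearest to those of Cd48 and Flt3 were sought among the other 10373 tested genes by the root mean square difference after centring each gene on its mean. Nearest to Cd48 were Ms4a4c (0.44), Ms4a6c (0.46) and Ifi213 (0.47), membrane proteins of leukocytes and an interferon-inducible gene. Ms4a4c read 5.59, 5.62 and 7.15 against 5.57, 3.05 and 4.05, and like Cd48 was lowest on WT_HSC replicate 2. Nearest to Flt3 were Slc7a7 (0.11), an amino acid transporter subunit, Bex2 (0.15) and Csf2rb2 (0.15), an interleukin-3 receptor subunit. Csf2rb2 read 7.98, 7.42 and 8.25 against 9.18, 9.09 and 9.19 and fell by 1.27 on the log2 scale (limma adjusted p = 0.0486), a call kept in 1 of the 6 fits with 1 array left out, that without Lrg47_HSC replicate 3 (limma adjusted p of up to 0.172). These neighbours were picked for profiles like those of Cd48 or Flt3 on the same arrays. Differences of like sign and size therefore follow from the search and add no separate evidence.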

How the data were processed

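Gene expression was measured on 6 Affymetrix arrays, 3 labelled Lrg47_HSC and 3 labelled WT_HSC. The authors deposited log2 expression values, 1 per probe set and array. Per the submitters' processing notes they come from GCRMA, whose version and settings are not stated there; that they are on a log2 scale was inferred from their range. GCRMA leaves dim probe sets in a narrow low band, so folds of dim genes depend on its correction. The values were used as deposited.

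Of 45101 probe sets, 34958 had 1 symbol in the platform table, 932 several and 9211 none. The comparison used R 4.3.3 and limma 3.58.1 (lmFit and eBayes with an intensity trend, 2-sided, Benjamini-Hochberg adjustment over all 22580 tested probe sets). Tested probe sets were above the array median on at least 3 of 6 arrays and no Affymetrix controls. The fit was tested on simulated data in which 200 probe sets were changed. It called 24% of the 2-fold and 84% of the 4-fold changes, and 6.09% of its calls were false. Changes of about 2-fold were thus mostly missed there. The members and lists were chosen with earlier results of these data known. The named genes were all members, called genes and genes with small p of the lists, and the 3 profiles nearest to the members with the highest and lowest difference. Not every called gene of the interferon-stimulated and marker lists is described: Usp18, Cxcl10 and Col1a2, for example, were called too. Other genes are named to describe arrays or markers and were chosen after their values were seen. So were the 13 marker and 4 interferon-stimulated genes drawn beside the members. Alternatives were other filters, scaling, variance models, array weights, thresholds and probe sets, the replicate number as a block and each array left out; a covariate for the distance between 3' and 5' actin control probe sets was added after the data were seen. Equal replicate numbers did not pair the arrays: the correlations of their deviations from the group means were −0.11, −0.02 and −0.28. The number of arrays limits the precision.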

Additional observations from a re-analysis of the deposited data

How the results depend on the processing

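With 3 arrays per group and no member past the threshold, the directions of Tek and Esam cannot be read from these data. Limma called 0 member genes higher under any alternative. It called 1 member gene and 1 member probe set lower (Flt3) at adjusted p under 0.1, under a 70th percentile filter, which tests fewer probe sets and left Slamf1 and Cd48 untested, with the actin gap as a covariate and without Lrg47_HSC replicate 3, and 2 (Flt3 and Cd34) with array weights, so that these counts were 0 to 1 over the fits with 1 array left out. The adjusted p of Flt3 was 0.0332 with that filter, 0.0235 with the covariate and 0.0208 with array weights, where Cd34 was at 0.0423, within ranges of 0.0208 to 0.266 for Flt3 and 0.0423 to 0.341 for Cd34 over their alternatives. Of all tested probe sets, limma called 150 higher and 163 lower; this became 25 and 32 at adjusted p under 0.01, 314 and 315 at adjusted p under 0.1, 49 and 54 with no filter, 62 and 64 when the 25th percentile was the filter, 401 and 463 with array weights, 252 and 263 with the covariate and 27 and 41 with the replicate block, which called 0 members. With 1 array left out, which also leaves fewer arrays, it was 17 to 138 higher and 28 to 129 lower. Other causes were not tested. With 1 array left out Tek ranged from −0.27 to 0.085 and Esam from −0.19 to 0.090. Tek was 0.042 without WT_HSC replicate 1, and Esam 0.044 without Lrg47_HSC replicate 2 and 0.048 without WT_HSC replicate 1.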

Other observations

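Genes of megakaryocytes and platelets, a lineage that stem cells with high CD150 are known to favour, mostly lay higher on the Lrg47_HSC arrays. A link to the Slamf1 values was not tested. The array held 13 of the listed markers, 8 were tested, and of these 2 rose and 1 fell (median difference 0.99). Without overlap between the groups, 6 lay higher and 1 lower, against 12.8% and 12.4% of all tested genes. An unadjusted p under 0.05 in limma was found for 7, against 18.5% of all tested genes. The list was chosen with earlier results of these data known. Among the 6 that lay higher, Itga2b, Itgb3 (log2 difference 0.67) and Vwf (1.76) did not pass. The summed linear level of the 13 was 4110 to 4498 on the Lrg47_HSC arrays and 3087 to 3397 on the WT_HSC arrays. Gp1bb, a subunit of the receptor for von Willebrand factor, was 1 of the 2 called higher, but it passed the filter only through the Lrg47_HSC arrays, on which it read 4.47, 4.29 and 4.99. On the WT_HSC arrays it read 2.93, 3.06 and 3.44, at or near the control ceiling, so its difference is one against background. The other was Selp. Mmrn1, which encodes multimerin and binds factor V, dropped by 2.03 (SE 0.23, limma adjusted p = 0.0122). Pf4, a platelet chemokine, differed by 0.98 (SE 0.23, limma adjusted p = 0.106) without overlap. Mmrn1 lost the call without WT_HSC replicate 1 or 2 (limma adjusted p of up to 0.0696). Without either of these arrays 0 of the 8 genes were called higher, and 0 without Lrg47_HSC replicate 1.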
